A study of Mus musculus with 4 samples.

Results

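Ferroptosis is a form of cell death that is driven by iron and by the peroxidation of polyunsaturated membrane lipids, and 8 genes that control it were followed here in mouse kidney after cisplatin. The members were chosen by symbol, as Slc7a11, Slc3a2, Chac1, Gpx4, Aifm2, Acsl4, Lpcat3 and Ncoa4. Each symbol had 1 row in the deposited count table of 29190 genes, and all 8 were among the 17419 genes tested after a filter on low counts. Slc7a11 and Chac1 passed that filter only through the cisplatin libraries, so they could hardly have been called lower. Kidneys came from 8-week-old male C57 mice that had received cisplatin at 30 mg/kg or, as controls, physiological saline, with 2 libraries in each group. Cisplatin, a platinum compound used against tumours, binds DNA and harms the tubule cells that take it up. According to the labels 18 mice were assigned to 3 groups, with killing 24 h or 48 h after cisplatin. The sources used here do not give the time behind the cisplatin libraries, or whether several animals were pooled in a library. No other genetic change or agent is named in the labels.

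Cells restrain ferroptosis by importing cystine, the oxidised form of cysteine, and turning it into glutathione, which the peroxidase GPX4 uses to reduce lipid peroxides. A parallel defence reduces ubiquinone in membranes, while enzymes that load phospholipids with polyunsaturated chains and pathways that release iron from ferritin favour the process. The proximal tubule, rich in mitochondria and in peroxidisable lipids, is a well-known site of ferroptosis in models of acute kidney injury. Transcript levels do not measure lipid peroxidation or cell death, and neither was measured here.

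The cisplatin libraries held 20662475 and 23150274 counts, and the saline libraries 21483564 and 27122403. Levels are CPM (per-million counts) after scaling by TMM (trimmed mean of M values, a factor that corrects for unequal RNA composition) unless FPKM is named, which is the deposited value corrected for gene length, and means are given with the SD of the 2 libraries of a group. Across genes, log2 CPM of the replicates correlated at r = 0.993 within cisplatin and r = 0.992 within saline. The labelled tissue was checked with 15 proximal tubule markers, each of which had counts in every library. Their summed level was 4330 and 4280 CPM in the cisplatin libraries, against 29200 and 29700 CPM in the saline libraries. All 15 fell, beside 36.4% of all tested genes in the test given below. In bulk tissue fewer cells of a type and less RNA per cell cannot be told apart, and this holds for every level given here.

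The members moved in both directions. Transcripts of the cystine importer Slc7a11, its partner Slc3a2, the glutathione-degrading enzyme Chac1 and the lipid-loading enzyme Acsl4 rose after cisplatin. Those of the peroxidase Gpx4, the ubiquinone reductase Aifm2 and the acyltransferase Lpcat3 fell, and the ferritin receptor Ncoa4 did not pass the test. Thus 7 of 8 members were called at an adjusted p under 0.05 (quasi-likelihood F test of edgeR, with the Benjamini-Hochberg adjustment, BH, over every tested gene), where 73.6% of all tested genes were called. The 4 that rose compare with 37.2% of all genes, and the 3 that fell with 36.4%, so these counts of 8 lie near the background. With library size alone 5 members rose and 2 fell, as the split of all genes then moved to 9110 (all genes called higher) and 4207 (all genes called lower), against 6487 and 6333 with TMM. For 7 of the 8 the groups did not overlap (86.3% of all genes), with 4 higher (44.7%) and 3 lower (41.7%). The median log2 fold change of the 8 was 0.19, against 0.04 for all genes tested. Changes of at least 2-fold were limited to Slc7a11 and Chac1 among the 8, where 35.3% of all tested genes were called with such a change. Both were tested only because of their cisplatin counts, so their direction was largely set by the filter.

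**Figure D1:**
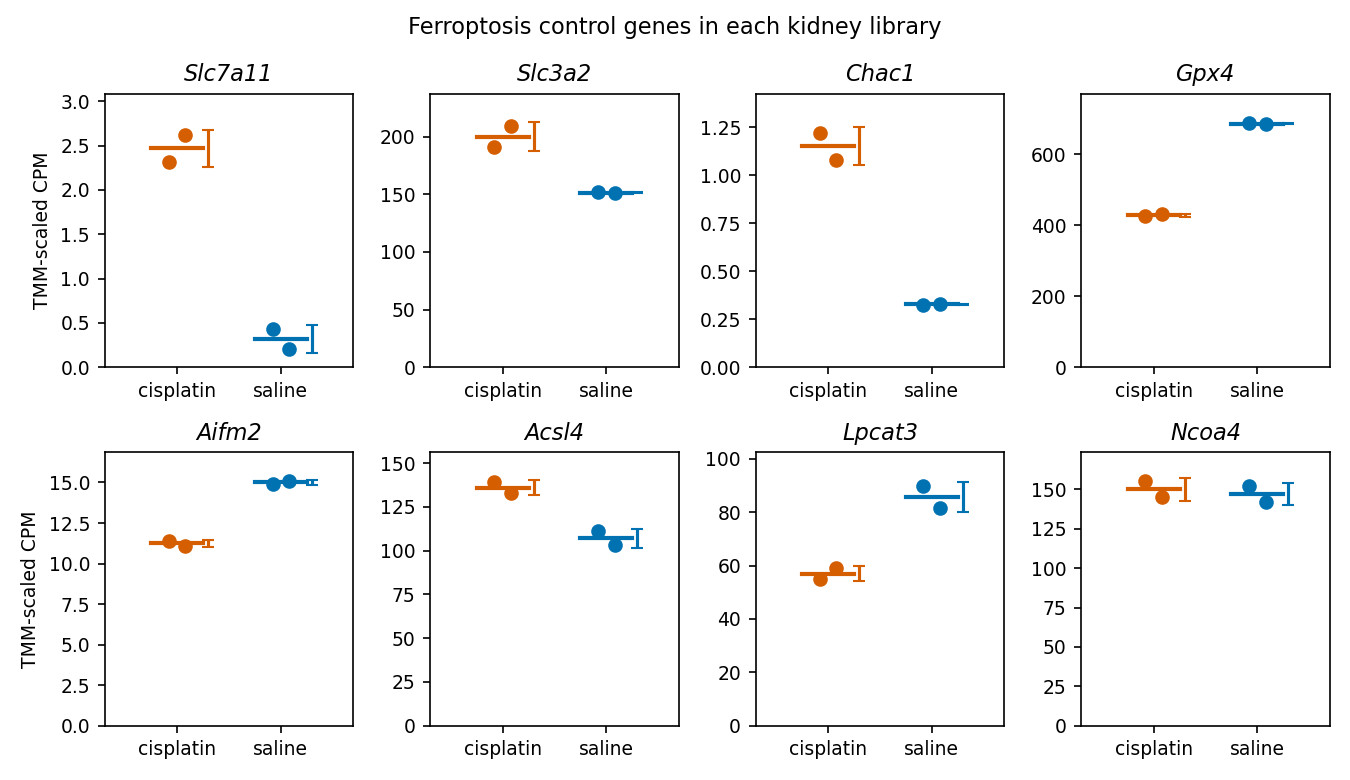
TMM-scaled CPM of the 8 members in each library, with cisplatin (orange) left of saline (blue). Points are libraries, horizontal lines the mean of 2 and error bars the SD. The groups are separated for 7 genes, and for Ncoa4 the cisplatin libraries (155 and 145 CPM) interleave with the saline libraries (152 and 142 CPM).

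On counts the largest change among the members was that of the cystine importer, which did not hold on either FPKM scale. Slc7a11 (ENSMUSG00000027737.8, chromosome 3, 49892526 to 50443614, minus strand, GRCm38) encodes xCT, the transport subunit that exchanges glutamate for cystine. It had 55 and 68 counts in the cisplatin libraries, against 8 and 5 counts in the saline libraries. These counts are 2.32 and 2.62 CPM after cisplatin, against 0.433 and 0.205 CPM after saline. Both cisplatin libraries stood above both saline libraries, and the saline level lay close to the floor of 3 counts, which is 0.123 to 0.162 CPM there. On the log2 scale the change was 3.0 (SE 0.40; edgeR, BH-adjusted p = 1.39e-06), which was above that of 96.8% of all tested genes. Slc7a11 passed the filter only through the cisplatin libraries, which limits what this p-value and rank can show. The ratio of the summed counts, 123 against 13, was 8.17 after scaling, with a 95% counting interval of 4.61 to 15.8. The log2 fold change was 2.50 without saline replicate 2 and 3.55 without saline replicate 1, both still called. The annotated span of Slc7a11 also holds the same-strand gene Gm37498 and the antisense gene Gm37854, which share no exon base with it. Gm37498 had 1 and 2 counts after cisplatin, and 1 and 2 after saline. Gm37854 had 21 and 28 counts after cisplatin, against 11 and 23 after saline, and did not pass (edgeR, BH-adjusted p = 0.463, and 0.118 to 0.933 over the alternatives).

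Slc3a2 (ENSMUSG00000010095.11, chromosome 19, 8706882 to 8723369, minus strand, GRCm38) encodes the heavy chain 4F2hc, which brings xCT and several other amino acid transporters to the plasma membrane. Its level was 191 and 209 CPM in the cisplatin libraries, against 152 and 151 CPM in the saline libraries. The groups did not overlap, but the rise was small, with a log2 fold change of 0.40 and a standard error of 0.06 (edgeR, BH-adjusted p = 6.57e-06). The heavy chain was far more abundant than the importer it carries, since the deposited FPKM of Slc3a2 was 276 ± 9.64 times that of Slc7a11 in the cisplatin libraries (SD, n = 2). In the saline libraries this ratio of FPKM was 1410 and 3070, from Slc7a11 values of 0.02 and 0.01 FPKM that hold a single digit.

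Chac1 (ENSMUSG00000027313.3, chromosome 2, 119351229 to 119354381, plus strand, GRCm38) encodes a cytosolic enzyme that breaks down glutathione, and its mRNA is widely used as a marker of cystine starvation and of ferroptosis inducers. It had 29 and 28 counts in the cisplatin libraries, against 6 and 8 counts in the saline libraries. The corresponding levels were 1.22 and 1.08 CPM after cisplatin, against 0.325 and 0.328 CPM after saline. Chac1 thus rose without overlap from a low level, with a log2 fold change of 1.80 and a standard error of 0.44 (edgeR, BH-adjusted p = 0.00112). Like Slc7a11, Chac1 passed the filter only through the cisplatin libraries, which limits what this p-value can show. The ratio of summed counts was 3.52, with a 95% counting interval of 1.93 to 6.83. Its paralog Chac2, a slower and constitutive enzyme of the same reaction, which is named here after its values were seen, fell to 11.9 and 11.5 CPM in the cisplatin libraries, against 31.9 and 30.6 CPM in the saline libraries (log2 fold change -1.42, SE 0.10).

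Slc7a11 and Chac1 are both known targets of ATF4, a transcription factor that is translated during amino acid shortage and endoplasmic reticulum stress and that binds amino acid response elements. The 300-base windows around the annotated starts of all 8 members, from RefSeq on GRCm38.p6, were searched on both strands for TGATGNAA, the core of such an element. It was found for 2 of the 8, Slc7a11 and Chac1. Both passed the filter only through the cisplatin libraries, and any link between the letters and their rise was not tested. The same letters occur in windows of 4.51% of 27025 genes. A match describes letters in a window and not a bound site, and a window without a match says nothing about the factor. The stretches are shown 5′ to 3′ on the strand of the gene, with the matches in capitals, at chr3:50443633-50443699 (minus strand) for Slc7a11, where matches begin 66 and 47 bases upstream of the start, and at chr2:119351029-119351076 (plus strand) for Chac1, where the match begins 193 bases upstream.
Slc7a11: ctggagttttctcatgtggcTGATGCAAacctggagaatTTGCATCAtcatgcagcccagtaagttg
Chac1: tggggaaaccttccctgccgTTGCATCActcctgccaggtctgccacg

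TTGCATCA is the match TGATGCAA read on the opposite strand, so the Slc7a11 stretch carries the same 8 letters in both orientations and Chac1 carries them in 1. The search for TGACNNNGC, the core of the antioxidant response element bound by NRF2, found a match for Ncoa4 alone among the 8, in 1 of its 3 annotated windows, against 14% of all genes. TGACGTCA, the cyclic AMP response element, was found for none of the 8, against 2.03% of all genes. As above, a window without a match says nothing about the factor. The part of ATF4 or NRF2 in the changes of the members was not tested.

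Other genes of the ATF4 programme were read from a list of 28, of which 27 were tested and Fgf21 had no count. Among them 16 genes rose and 6 fell, the median log2 fold change was 0.45, and 5 missed the threshold (21 higher and 5 lower when scaled by library size alone). The TMM shares were 59.3% higher and 22.2% lower, beside 37.2% and 36.4% of all tested genes. The list median was 0.81 with library size alone, where that of all tested genes was 0.41. Atf4 itself was at 118 and 113 CPM in the cisplatin libraries, against 45.3 and 47.6 CPM in the saline libraries (log2 fold change 1.31, SE 0.06). The stress-induced transcription factor Atf3 was at 67.2 and 64.9 CPM after cisplatin, against 1.41 and 1.60 CPM after saline, the largest log2 fold change of the list at 5.44 (SE 0.12). Sesn2, which signals amino acid shortage to mTORC1, and Ppp1r15a, which returns translation to normal, rose by 2.78 (SE 0.07) and 3.01 (SE 0.10) on the log2 scale. Atf3, Sesn2 and Ppp1r15a were picked by their small p-values within the list. The lipoprotein receptor Vldlr, a further list member with a small p, fell to 57.8 and 59.0 CPM in the cisplatin libraries, against 187 and 185 CPM in the saline libraries (log2 fold change -1.67, SE 0.06). Atf3 and Sesn2 are also known to respond to DNA damage.

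Windows were found for 24 of the 28, and 9 of these held TGATGNAA, which is a description of a list that was assembled from known ATF4 targets. Of the 9, Atf3, Trib3, Asns, Nupr1 and Aars rose (5 genes) and Vldlr alone fell, Gars and Pck2 did not pass, and Fgf21 was not tested. Any link between the letters and the direction of change was not tested. Stretches of 3 of the 5 that rose are shown, with Vldlr and with Slc7a7, which belongs to the list of light chains and not to that of ATF4. Atf3 (chr1:191183420-191183459, minus strand), Asns (chr6:7693210-7693248, minus strand) and Nupr1 (chr7:126625557-126625596, minus strand) rose, whereas Vldlr (chr19:27216804-27216843, plus strand) and Slc7a7 (chr14:54417922-54417952, minus strand), a light chain described next, fell. Asns and Nupr1 were named after their values were seen. Slc7a7 also held a match, TGATGAAA, beginning 141 bases upstream of another annotated start, which is not shown. Capitals mark the match.
Atf3: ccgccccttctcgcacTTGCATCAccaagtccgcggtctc
Asns: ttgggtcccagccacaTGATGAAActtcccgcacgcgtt
Nupr1: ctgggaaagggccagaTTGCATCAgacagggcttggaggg
Vldlr: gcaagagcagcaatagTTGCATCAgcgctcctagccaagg
Slc7a7: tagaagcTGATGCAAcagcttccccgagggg

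Slc3a2 serves several light chains, and these moved in opposite directions. Slc7a5, the leucine importer LAT1, rose to 9.49 and 8.95 CPM in the cisplatin libraries, against 1.35 and 1.43 CPM in the saline libraries (log2 fold change 2.72, SE 0.20). Slc7a6, a transporter of basic and neutral amino acids, rose as well, with a log2 fold change of 1.72 (SE 0.15). The light chains of the basolateral membrane of the proximal tubule fell. Slc7a7, which exports basic amino acids, was at 8.27 and 8.29 CPM after cisplatin, against 190 and 179 CPM after saline (log2 fold change -4.48, SE 0.07). Slc7a8, the LAT2 exchanger, had a log2 fold change of -2.41 (SE 0.07). Slc7a10 was not tested, with 4 counts in cisplatin replicate 1 and 0 in both saline libraries. On the FPKM scale, which corrects for length, the heavy chain stood at 4.27 and 4.90 times the sum of the 6 light chains in the cisplatin libraries, against 0.503 and 0.528 times that sum in the saline libraries. Slc7a11 made up 1.51 and 1.82% of that sum after cisplatin, against 0.0357 and 0.0172% after saline, so it stayed the least abundant of the tested light chains in every library. In the same libraries the 15 proximal tubule markers fell by a median log2 fold change of -2.70, and their part in the changes of light chains was not tested.

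Cystine and its precursors also enter by routes other than xCT, and most transcripts of glutathione and cysteine supply fell. In a list of 20 genes of glutathione and cysteine supply 16 fell and 2 rose, and 2 missed the threshold. The median log2 fold change was -1.23, and 36.4% of all tested genes fell with TMM. When scaled by library size alone 14 fell and 4 rose, with a list median of -0.86 beside 0.41 for all tested genes. Slc7a9 and Slc3a1, the subunits of the brush border cystine transporter, had log2 fold changes of -3.90 (SE 0.07) and -2.72 (SE 0.06). Ggt1, which cleaves extracellular glutathione on the brush border, was at 199 and 211 CPM in the cisplatin libraries, against 919 and 910 CPM in the saline libraries. The glutamate and cysteine carrier Slc1a1 had a log2 fold change of -2.27 (SE 0.06). These 4 were named for the smallest p-values of the list. All of them are active in the proximal tubule, whose 15 markers fell together, and the part of that segment in these changes was not tested. Per length both subunits were still above Slc7a11 after cisplatin, where Slc3a1 averaged 50.0 FPKM, Slc7a9 4.30 FPKM and Slc7a11 0.17 FPKM. The genes that rose were Gclc, the catalytic subunit of the first enzyme of glutathione synthesis (log2 fold change 0.65, SE 0.06), and the cysteinyl-tRNA synthetase Cars1, listed as Cars (0.84, SE 0.09), both named after their values were seen.

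Gpx4 fell, and it was the most abundant member in every library on either scale. Gpx4 (ENSMUSG00000075706.8, chromosome 10, 80047166 to 80056439, plus strand, GRCm38) encodes the selenium-containing peroxidase that reduces lipid peroxides inside membranes, the central brake on ferroptosis. Its level was 426 and 432 CPM in the cisplatin libraries, against 688 and 686 CPM in the saline libraries. The groups were far apart relative to the spread within them, with a log2 fold change of -0.68 and a standard error of 0.05 (edgeR, BH-adjusted p = 8.83e-10). The size of the fall depended on the scaling, being -0.31 with library size alone and -0.41 on the log2(FPKM + 0.1) scale, and it passed under each. Abundant relatives fell as well, and differences between genes were not tested. Gpx1, the general cytosolic peroxidase, had a log2 fold change of -1.28 (SE 0.05), and Gpx3, the plasma peroxidase that the kidney secretes, of -1.89 (SE 0.11). Gpx3 was at 2300 and 2970 CPM in the cisplatin libraries, against 11300 and 8250 CPM in the saline libraries. Gpx6 also fell (-0.84, SE 0.08), whereas Gpx7 (1.14, SE 0.25) and Gpx8 (0.78, SE 0.10), peroxidases of the endoplasmic reticulum, rose. Gpx2 and Gpx5 had at most 4 counts in a library in cisplatin and saline alike and were not tested. As a share of the summed FPKM of the family, Gpx4 was at 14.3 and 12.3% in the cisplatin libraries, against 6.07 and 7.67% in the saline libraries.

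**Figure D2:**
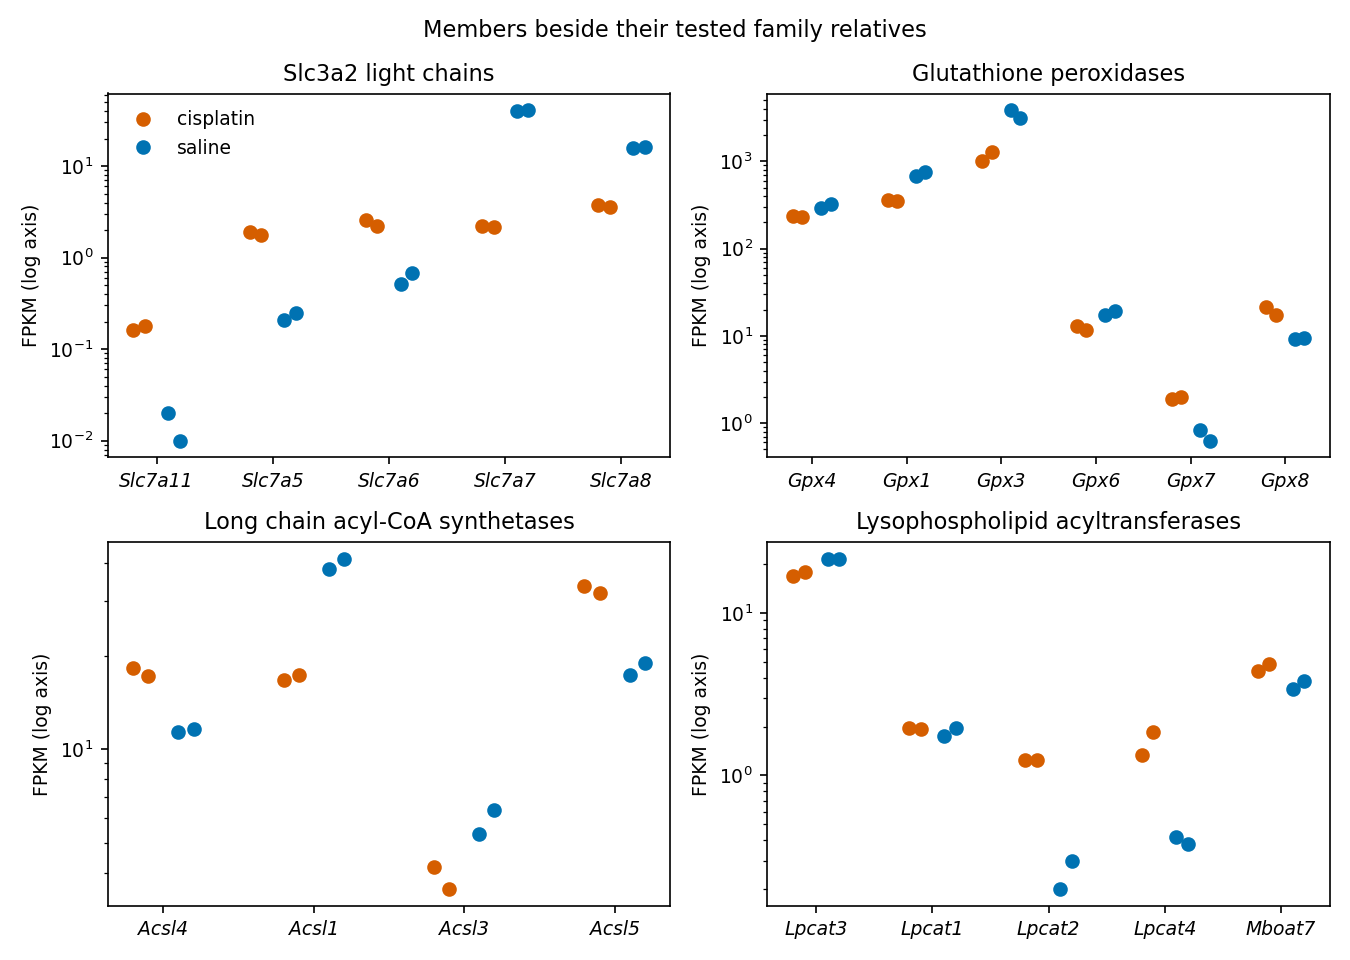
Deposited FPKM of 4 members beside their tested relatives, on a log axis, with cisplatin libraries (orange) left of saline libraries (blue) for each gene and 1 point per library. Slc7a11 lies lowest among the light chains, and Acsl1 lies near Acsl4 after cisplatin but above it after saline.

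GPX4 needs selenocysteine, an amino acid inserted by a dedicated machinery, and most transcripts of selenium supply and selenoprotein synthesis fell too. In a list of 12 genes of selenium supply and selenoprotein synthesis 9 fell and 1 rose, and 2 missed the threshold. The median log2 fold change was -1.07, beside the same 36.4% lower among all tested genes with TMM. When scaled by library size alone 8 fell and 2 rose, with a list median of -0.71 beside 0.41 for all tested genes. Sephs2, which makes the selenium donor, was at 74.9 and 73.8 CPM in the cisplatin libraries, against 291 and 308 CPM in the saline libraries. Sepsecs, which completes selenocysteine on its tRNA, had a log2 fold change of -1.65 (SE 0.07), and the selenium carrier Selenop, listed as Sepp1, of -1.26 (SE 0.06). Lrp2, the receptor through which the proximal tubule takes up that carrier, had a log2 fold change of -2.89 (SE 0.05) and is also 1 of the 15 proximal tubule markers. These 4 had the smallest p-values of the list.

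Aifm2 gave the least secure call among the members. Aifm2 (ENSMUSG00000020085.13, chromosome 10, 61715263 to 61739260, plus strand, GRCm38) encodes FSP1, which regenerates reduced ubiquinone and restrains ferroptosis independently of glutathione. Its level was 11.4 and 11.1 CPM in the cisplatin libraries, against 14.9 and 15.1 CPM in the saline libraries, with no overlap and a log2 fold change of -0.42 (SE 0.11; edgeR, BH-adjusted p = 0.00229, and 0.000784 to 0.708 over the alternatives). With library size alone the values were 13.1 and 12.5 CPM after cisplatin, against 12.8 and 13.6 CPM after saline, which overlap. The log2 fold change was then -0.05, and the call was also lost on both FPKM scales. Its 3′ end shares 233 exon bases with H2afy2, a histone gene on the opposite strand that was at 6.28 and 6.09 CPM after cisplatin and 9.74 and 11.6 CPM after saline. The sources used here do not say whether counting used strand, and without it reads in the shared bases cannot be told apart. Aifm1 and Aifm3, paralogs with mitochondrial roles, had log2 fold changes of -1.97 (SE 0.06) and -1.01 (SE 0.19).

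The enzymes that supply oxidisable phospholipids moved in opposite directions. Acsl4 (ENSMUSG00000031278.10, chromosome X, 142317993 to 142390535, minus strand, GRCm38) activates arachidonic and adrenic acid to their coenzyme A esters and is needed for ferroptosis in many cells. It was at 139 and 133 CPM in the cisplatin libraries, against 111 and 103 CPM in the saline libraries. The groups did not overlap, and the log2 fold change was 0.35 (SE 0.06; edgeR, BH-adjusted p = 2.56e-05). With library size alone it was 0.72, and on the log2(FPKM + 0.1) scale 0.62. Lpcat3 (ENSMUSG00000004270.11, chromosome 6, 124663027 to 124704418, plus strand, GRCm38) places such acyl chains into phospholipids, the step after Acsl4. It was at 55 and 59 CPM in the cisplatin libraries, against 89.7 and 81.7 CPM in the saline libraries, without overlap. Its log2 fold change was -0.59 (SE 0.06; edgeR, BH-adjusted p = 6.72e-08), and -0.22 with library size alone. The 3′ end of Lpcat3 shares 334 exon bases with Emg1 on the opposite strand, which rose with TMM and under 9 of 14 alternatives (45.9 and 42.4 CPM after cisplatin, 34.3 and 39.8 CPM after saline), and without strand reads there cannot be told apart.

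Within their families both enzymes shifted in rank or share. Acsl1, the main synthetase of fatty acid oxidation, fell to 99.4 and 105 CPM in the cisplatin libraries, against 289 and 284 CPM in the saline libraries (log2 fold change -1.48, SE 0.06). Acsl3 fell as well (-0.88, SE 0.09), and Acsl5 rose (0.58, SE 0.06), while Acsl6 had too few counts to be tested. Per length, Acsl1 was at 0.916 and 1.01 times the FPKM of Acsl4 after cisplatin, against 3.34 and 3.53 times after saline. Acsl5 stood above Acsl4 in every library, with means of 32.8 against 17.7 FPKM after cisplatin and 18.2 against 11.5 FPKM after saline. Acsl4 made up 25.1 and 24.6% of the family's summed FPKM after cisplatin, against 15.8 and 14.9% after saline. Lpcat3 remained the most abundant acyltransferase of its family per length in every library, at 65.4 and 64.2% of the summed FPKM after cisplatin and 78.9 and 77.0% after saline. Lpcat2, an enzyme of inflammatory cells (log2 fold change 2.03, SE 0.24), and Lpcat4 (1.74, SE 0.24) rose from low levels, and Lpcat1 (-0.20, SE 0.12, but 0.16 with library size alone) and Mboat7 (0.09, SE 0.10) did not pass. Macrophage markers moved in the same libraries, 9 of 12 rising and 1 falling (75% and 8.33%, beside 37.2% and 36.4% of all tested genes). Their summed level was 265 and 284 CPM after cisplatin, against 99.6 and 108 CPM after saline. No marker of that list was at 0 in any library, and its part in the Lpcat2 and Acsl4 changes was not tested.

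The ratio of Gpx4 to Acsl4, which does not depend on how libraries are scaled, summarises the opposed movement of these 2 transcripts. It was 12.8 and 13.6 on the FPKM scale in the cisplatin libraries, against 26.0 and 27.9 in the saline libraries. The groups were separate, with a mean of 13.2 ± 0.512 after cisplatin and 26.9 ± 1.31 after saline (SD, n = 2 each). No permutation of 2 against 2 libraries can give a p below 0.333, so no test is attached. The ratio of Acsl4 to Lpcat3 was 1.08 and 0.967 after cisplatin, against 0.529 and 0.540 after saline.

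The scaling also decided the call of Ncoa4. Ncoa4 (ENSMUSG00000056234.12, chromosome 14, 32159865 to 32179855, plus strand, GRCm38) encodes the receptor that delivers ferritin to lysosomes, where its iron is released. It was at 155 and 145 CPM in the cisplatin libraries, against 152 and 142 CPM in the saline libraries, and the groups overlapped. On the log2 scale the change was 0.02 (SE 0.06; edgeR, BH-adjusted p = 0.729, and 1.46e-05 to 0.925 over the alternatives). With library size alone the levels were 177 and 162 CPM after cisplatin, against 131 and 128 CPM after saline, with a log2 fold change of 0.39. The deposited FPKM were 26.39 and 24.28 after cisplatin, against 20.33 and 20.96 after saline. Relative to the median of all tested genes, 0.04 with TMM and 0.41 with library size alone, Ncoa4 stood near the middle on both scales, above 49.3% of tested genes with TMM.

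**Figure D3:**
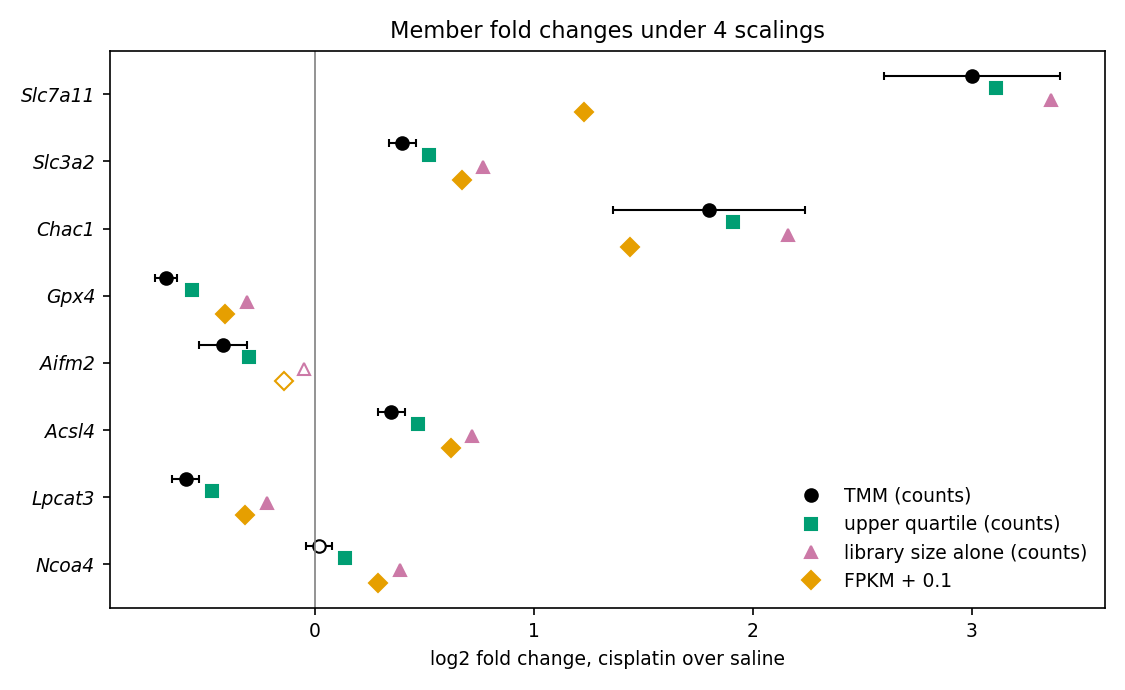
Log2 fold change, cisplatin over saline, of each member under 4 scalings. Filled symbols passed at an adjusted p under 0.05, open symbols did not, and bars are the standard error of the TMM fit. All members shift to the right with library size alone, where Aifm2 is at -0.05 and Ncoa4 at 0.39, and no called member changes sign.

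In order of length-corrected level, the cisplatin libraries had Gpx4 (234 ± 0.728 FPKM), Slc3a2 (46.8 ± 2.26), Ncoa4 (25.3 ± 1.49), Acsl4 (17.7 ± 0.742), Lpcat3 (17.3 ± 0.658), Aifm2 (2.26 ± 0.0636), Chac1 (0.485 ± 0.0495) and Slc7a11 (0.17 ± 0.0141), as mean FPKM with SD, n = 2. In the saline libraries Lpcat3 (21.5 ± 0.0424 FPKM) and Ncoa4 (20.6 ± 0.445 FPKM) stood ahead of Acsl4 (11.5 ± 0.198 FPKM), and the rest of the order was the same. Acsl4 and Lpcat3 overlapped after cisplatin, and no other neighbours did in that group. The importer and Chac1 were at the bottom in both groups.

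Beyond the 8, the wider pathway was read from 56 genes, 24 that restrain ferroptosis and 32 that favour it, of which 54 were tested. There 21 genes rose, 27 fell and 6 missed the threshold, the median log2 fold change being -0.23 (27 higher and 21 lower when scaled by library size alone). The TMM counts are 38.9% higher and 50% lower of the 54, beside 37.2% and 36.4% of all tested genes. The median of the 54 was 0.14 with library size alone, below the 0.41 of all tested genes. The split of all genes also moved towards higher with that scaling, so the 27 are not read as a rise of the list. The 24 defence genes gave 11 higher and 11 lower (13 and 8 with library size alone), and the 30 tested driver genes 10 higher and 16 lower (14 and 13). Of the drivers called higher, Alox5, Aloxe3 and Gls2 passed the filter only through the cisplatin libraries, so they could hardly have been called lower. Neither list moved in 1 direction.

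Within the defence list the genes with the smallest p were Hmox1, Hspb1, Scd1 and Txnrd1. Hmox1, heme oxygenase, which frees iron from heme and can act on either side of ferroptosis, was at 92.4 and 99.0 CPM in the cisplatin libraries, against 8.23 and 10.4 CPM in the saline libraries (log2 fold change 3.34, SE 0.09). The small heat shock protein gene Hspb1 had a log2 fold change of 3.73 (SE 0.11), and Txnrd1, thioredoxin reductase, of 1.64 (SE 0.07). Scd1, which makes the monounsaturated chains that resist peroxidation, fell (-1.72, SE 0.06). Nfe2l2, encoding the antioxidant regulator NRF2, rose to 158 and 165 CPM after cisplatin, against 86.4 and 83.5 CPM after saline (log2 fold change 0.93, SE 0.06).

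The values of the ferritin subunits, which store the iron that NCOA4 mobilises, depended on the scaling. The log2 fold change of Fth1 was 0.23 (SE 0.06; edgeR, BH-adjusted p = 0.00213), from 1710 and 1740 CPM in the cisplatin libraries, against 1570 and 1380 CPM in the saline libraries. It was 0.60 with library size alone and 0.50 on both FPKM scales, where the call was lost, as it was with edgeR's exact test (BH-adjusted p of 0.0619 to 0.0766). Ftl1 was at 1060 and 1070 CPM after cisplatin, against 1250 and 1360 CPM after saline, with a log2 fold change of -0.30 (SE 0.06) that became 0.07 with library size alone. The iron exporter Slc40a1, named after its values were seen, fell (-1.21, SE 0.06). The transferrin receptor Tfrc, which imports iron, had a log2 fold change of -0.32 (SE 0.06), but of 0.05 with library size alone.

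Among the driver genes the smallest p belonged to Nox4, Far1, Fads2 and Ptgs2. Nox4, a hydrogen peroxide-producing oxidase that is abundant in the kidney, fell to 146 and 137 CPM in the cisplatin libraries, against 824 and 812 CPM in the saline libraries (log2 fold change -2.53, SE 0.06). Far1, of ether lipid synthesis, fell by 1.97 (SE 0.06) and the desaturase Fads2, which makes highly unsaturated chains, by 2.20 (SE 0.07) on the log2 scale. Ptgs2, encoding cyclooxygenase-2 and often read as a marker of ferroptosis in tissue, was at 23.5 and 23.7 CPM after cisplatin, against 0.812 and 1.02 CPM after saline (log2 fold change 4.65, SE 0.17). Ptgs2 is also an inflammatory gene. In the same libraries all 5 tested neutrophil markers of a list of 10 rose, beside 37.2% of all tested genes. Of these markers S100a8, S100a9, Csf3r and Retnlg passed the filter only because of the cisplatin libraries, so they could hardly be called lower. The summed level over 9 listed genes was 33.2 and 30.8 CPM after cisplatin, against 4.11 and 2.91 CPM after saline. Of the neutrophil markers Ly6g, Mpo, Camp and Ngp had at most 8 counts in a cisplatin library and were at 0 in both saline libraries, and the part of such cells in the Ptgs2 change was not tested.

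**Figure D4:**
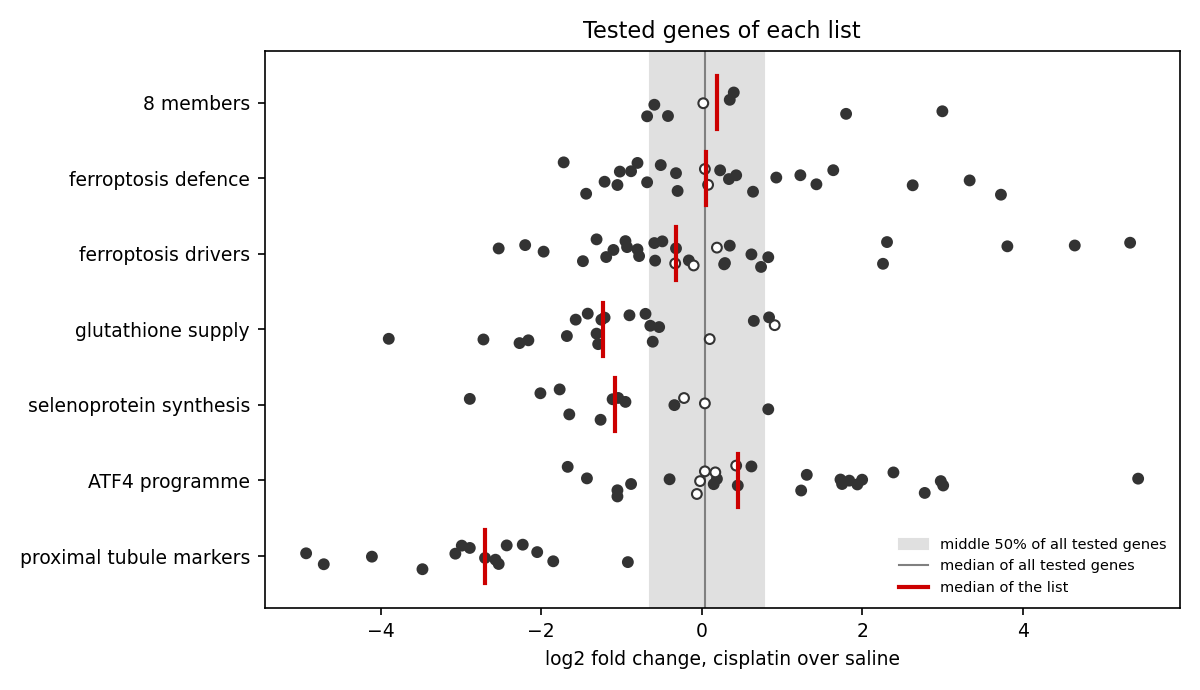
Log2 fold change, cisplatin over saline, of each tested gene in 7 lists, with points spread vertically for visibility. Filled points passed at an adjusted p under 0.05, red marks are list medians, and the grey band and line are the middle 50% and the median of all tested genes. The 8 members have a median of 0.19, the glutathione supply list of -1.23 and the proximal tubule markers of -2.70.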

How the data were processed

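The authors deposited a table of raw read counts for 29190 genes and FPKM, in which fragments are scaled by gene length and by library, for 29157 genes, each with 1 column per library. Per the submitters' processing notes, bcl2fastq, TopHat2, edgeR and the GRCm38 build were used, without stated roles. The sources used here do not give how reads were counted, with or without strand, or against which annotation. Per the labels' protocols, ribosomal RNA was removed from total RNA, and directional libraries were read as pairs of 150 nt.

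Counts were filtered with filterByExpr, scaled by TMM (factors 1.15 and 1.12 for cisplatin, 0.86 and 0.90 for saline) and tested over all 4 libraries with edgeR 4.0.16 (R 4.3.3), quasi-likelihood F test, with 2 residual degrees of freedom. P-values were adjusted by Benjamini-Hochberg over all 17419 genes tested, and the threshold was 0.05. A standard error follows from the log2 fold change and its F statistic. The test was first tested on simulated data in which most genes were unchanged. That setting differs from these data and does not check the scaling. Replicates of a group differed by more than sampling noise (chi-square per degree of freedom 11.5 for cisplatin and 36.6 for saline). The design text calls them biological replicates, but the biological coefficient of variation was only 6.42%, and p-values measure the spread between these libraries. Intervals and floors (3 counts) cover counting error only, since PCR copies were not marked.

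Members and lists were chosen with earlier results of these data known. By rule, named genes were all members, every gene of lists of up to 7, the 4 with the smallest p of longer lists, and Ptgs2, Tfrc, Fth1, Ftl1, Hmox1, Nfe2l2 and Atf4, with genes of the count table that overlap a member. Others named outside this rule are Chac2, Gclc, Cars1, Asns, Nupr1, Slc40a1, Trib3, Aars, Gars, Pck2 and Fgf21, chosen after their values were seen, and genes listed as turning round under an alternative. List genes and markers were also named for how they passed the filter. No list test was run. Coordinates came from GENCODE M21 (99.2% of identifiers matched without version) and promoter windows from RefSeq, both on GRCm38. Marker lists of thick limb and distal tubule (1 of 10 rose, 9 fell), collecting duct (2 of 10 rose, 7 fell), endothelium (7 of 10 rose, 2 fell), fibroblasts and mural cells (9 of 10 rose, 1 fell) and lymphocytes (2 of 7 tested rose) were also read. Of all tested genes 37.2% rose and 36.4% fell. The lymphocyte markers that rose, Cd4 and Cd79a, passed the filter only through the cisplatin libraries. Alternatives were other scalings, filters, DESeq2 1.42.0, edgeR's exact test, limma-trend (limma 3.58.1) on log2 of FPKM plus 0.1 or 1, leaving out each library, and a replicate block. Plots used Python 3.11.15 and matplotlib 3.10.9.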

Additional observations from a re-analysis of the deposited data

How the results depend on the processing

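Of the 8 members, 6 kept their direction and their call under all 14 alternatives. Aifm2 lost its call with library size alone and on both FPKM scales, and Ncoa4 gained one with upper-quartile scaling, library size alone and both FPKM scales. The number of all genes called lower was 6333 with TMM, 4207 with library size alone, 3804 on the log2(FPKM + 0.1) scale and 3784 on the log2(FPKM + 1) scale, and the number called higher was 6487 with TMM and 9110 with library size alone. Members called higher numbered 4 or 5 and members called lower 2 or 3 over all alternatives. With each library left out in turn, all genes called higher ranged from 5622 to 6237 and lower from 5868 to 6267, members stayed at 4 and 3, and the other pathway genes ranged from 20 to 21 higher and 26 to 27 lower. Adding 0.1 or 1 to FPKM shrank low genes. On the log2 scale Slc7a11 then stood at 1.23 and 0.20, and Chac1 at 1.44 and 0.41. Slc7a11 thus no longer had the largest change among the members.

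Of 142 list and member genes tested, 99 kept their call under all alternatives. The sign changed under at least 1 alternative for 16 genes, of which 8 were not called on either side (Ncoa4 and Lpcat1 among them) and 8 were called with TMM, under the alternative or both. For the called 8, with library size alone the log2 fold change was 0.07 for Ftl1, 0.04 for Coq2, 0.05 for Tfrc, 0.21 for Por, 0.27 for Keap1, 0.02 for Secisbp2, 0.35 for Sars and 0.30 for Gars, and Por stood at 0.11 and 0.10 on the FPKM scales.

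Replicate numbers were not stated to pair animals, and same-numbered libraries did not deviate together (r = -0.02 across genes). With the replicate block all genes called higher numbered 6382 and all genes called lower 6271, members were again 4 and 3, other pathway genes 21 and 27, and the log2 fold change was 3.0 for Slc7a11, -0.68 for Gpx4 and 0.02 for Ncoa4. Depth limits Slc7a11 and Chac1 most, at 13 and 14 summed saline counts.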
